A study of Mus musculus with 8 samples.

Results

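Voltage-gated potassium, sodium and calcium channel genes were examined for histone H3 lysine 4 methylation in the embryonic mouse cortex. The set holds 36 genes named in a list of channel families (24 potassium, 4 sodium and 8 calcium channel pore subunits), out of 21887 protein-coding loci with a unique symbol. Each locus was the GRCm38 span of the gene plus 10 kb on either side, and the measure was the number of its bases that lay under called peaks. The chromatin came from whole cortex lysate of E15.5 embryos. There were 2 libraries from Prdm16 flox/flox embryos without Cre (WT) and 2 from Emx1Ires-Cre; Prdm16flox/flox embryos (cKO), so all 4 carry the floxed alleles. Chromatin was native, cut with micrococcal nuclease and precipitated with an anti-H3K4me antibody (ab8895) whose catalogue entry is for the monomethylated form. Emx1-driven Cre acts in the progenitors of the dorsal forebrain and in their progeny, so interneurons that migrate in, vessels and microglia of the cKO cortex keep intact Prdm16. Nothing in the labels says whether replicates came from separate embryos or litters, so p-values measure only the spread between these libraries, which may be technical.

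Voltage-gated channels open when the membrane potential changes. Sodium channels carry the upstroke of the action potential, potassium channels repolarise the membrane and set how often a neuron can fire, and calcium channels couple electrical activity to transmitter release and gene expression. Monomethylation of lysine 4 on histone H3 marks enhancers, both active and poised, and the flanks of promoters, while the centre of a strongly active promoter usually carries the trimethylated form. In developing cortex many channel genes are switched on as progenitors become neurons. Prdm16 encodes a zinc-finger protein with a PR domain that is made in cortical radial glia.

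The peak lists held 75314 and 66476 peaks in the WT libraries and 80519 and 82683 in the cKO libraries, and the covered length was 122 ± 11.6 Mb in WT and 157 ± 12.7 Mb in cKO (SD, n = 2 each), a ratio of 1.29. The channel loci followed this: their covered length was 496 ± 53.9 kb in WT and 651 ± 49.3 kb in cKO (SD, n = 2 each), a ratio of 1.31. They held 0.406 ± 0.0056% of all peak bases in WT and 0.414 ± 0.0021% in cKO. The lists hold no read counts, so depth is unknown, and depth, precipitation yield and genotype cannot be told apart in any difference of covered length. For this reason the main counts below are also given with all lists reduced, by q-value, to the covered length of the shortest list. Peaks covered a median of 62.4% to 68.3% of the loci of 5 progenitor markers over the libraries and 56.9% to 72.5% of those of 5 projection neuron markers. Other tissues were far lower: 0.890% to 3.04% for erythroid, 1.02% to 6.86% for muscle, 4.04% to 6.42% for microglial and 0% for liver markers, where Alb, Ahsg and Serpina1a had no peak in any library. These too are medians: 3 of 5 erythroid, 3 of 5 muscle, 4 of 5 microglial and 2 of 5 liver markers had peaks in all 4 libraries. Prdm16 itself had 154 and 144 kb under peaks in WT against 171 and 182 kb in cKO. With each library centred on its median locus, the log2 difference of Prdm16, cKO minus WT, was −0.14 (limma, Benjamini-Hochberg adjusted p = 0.518). These peak lists do not show the deletion.

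Peaks reached the start in all 4 libraries for some channel genes, in the cKO libraries alone for others, and in none for a few. The bases just before the start of a gene of each kind are shown here so that the sequence behind each state can be read; they come from RefSeq on GRCm38.p6, run 5′ to 3′ in the direction of the gene, and end at the base before its start. Capitals mark CG dinucleotides, the sites of DNA methylation that cluster in CpG island promoters. Kcnc1 at chr7:46396218-46396467 (plus strand) encodes a Kv3 channel of fast-spiking neurons, and Scn1a at chr2:66440838-66441087 (minus strand) encodes a sodium channel known for epilepsy. The windows of both were under peaks in both cKO libraries and in neither WT library. Kcnh5 at chr12:75177333-75177582 (minus strand) encodes an EAG channel and was under peaks in all 4 libraries. Kcnd2 at chr6:21215096-21215345 (plus strand) encodes the Kv4 channel of somatodendritic A-type current and was under peaks in none.
Kcnc1: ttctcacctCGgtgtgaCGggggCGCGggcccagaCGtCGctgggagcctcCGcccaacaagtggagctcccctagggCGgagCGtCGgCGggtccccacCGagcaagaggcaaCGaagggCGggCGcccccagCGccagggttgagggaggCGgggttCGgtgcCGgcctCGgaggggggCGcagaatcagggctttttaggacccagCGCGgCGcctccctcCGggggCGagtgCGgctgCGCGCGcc
Scn1a: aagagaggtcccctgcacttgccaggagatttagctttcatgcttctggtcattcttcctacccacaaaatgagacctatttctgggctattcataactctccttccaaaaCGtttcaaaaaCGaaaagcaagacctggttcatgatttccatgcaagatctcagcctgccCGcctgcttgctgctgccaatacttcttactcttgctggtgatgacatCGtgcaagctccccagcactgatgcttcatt
Kcnh5: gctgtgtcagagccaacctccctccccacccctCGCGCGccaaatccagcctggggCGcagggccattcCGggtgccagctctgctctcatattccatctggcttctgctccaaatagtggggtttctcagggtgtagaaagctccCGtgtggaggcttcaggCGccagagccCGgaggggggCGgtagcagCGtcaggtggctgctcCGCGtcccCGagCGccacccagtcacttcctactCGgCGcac
Kcnd2: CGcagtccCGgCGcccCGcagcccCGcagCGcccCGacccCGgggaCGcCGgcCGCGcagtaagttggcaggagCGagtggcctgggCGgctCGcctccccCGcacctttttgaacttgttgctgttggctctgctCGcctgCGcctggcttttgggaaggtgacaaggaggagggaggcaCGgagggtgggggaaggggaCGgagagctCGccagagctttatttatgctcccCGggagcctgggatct
The 250 bases of Kcnc1 held 30 CG dinucleotides at a GC content of 74.4%, and those of Scn1a held 4 at 46.8%. Kcnh5 held 16 CG at 65.6% GC and Kcnd2 held 22 at 68.8% GC. So the pair reached by peaks in the cKO libraries alone spanned the range from a CG-dense to a CG-poor start. The start of Kcnd2, whose window no peak touched, was CG-rich.

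Starts were in the RefSeq promoter table for 26 of the 36 genes. Kcna1, Kcnb2, Kcnd1, Kcnh3, Kcnq1, Kcnq3, Scn3a, Cacna1a, Cacna1g and Cacna1h were not in it. Each window ran from 250 bases before the start to 50 after it, and where a gene had several starts the outermost was taken. For 5 genes that start lies over 1 kb inside the gene span: 159 kb for Cacna1e, 22.1 kb for Kcnh2, 10.7 kb for Kcna2, 1.63 kb for Kcnh1 and 1.39 kb for Kcnc4. For these the window is an inner start, not the outer end of the gene. The table gives no other start for them. A peak touched the window in 11 and 13 of the 26 genes in the WT libraries and in 21 and 21 in the cKO libraries. In 9 genes (34.6%) it was touched in all 4 libraries, beside 30.3% of 11855 starts of the loci tested for genotype. These were Cacna1c, Cacna1e, Kcnc4, Kcnd3, Kcnh2, Kcnh4, Kcnh5, Kcnh6 and Kcnh8, so 5 of the 9 belong to the EAG, ERG and ELK potassium channels, which make up 7 of the 26 starts. Of the 9, Cacna1e, Kcnc4 and Kcnh2 are inner starts. Among genes whose start lies within 1 kb of the end of the gene span, the count was 6 of 21 (28.6%). Beside it stood 30.2% of 10444 tested starts of that kind. In 3 genes, Cacna1d, Kcnd2 and Scn2a, no library touched the window. Their windows held 4, 26 and 3 CG dinucleotides, so the CG-rich Kcnd2 does not stand for all of them.

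**Figure D1:**
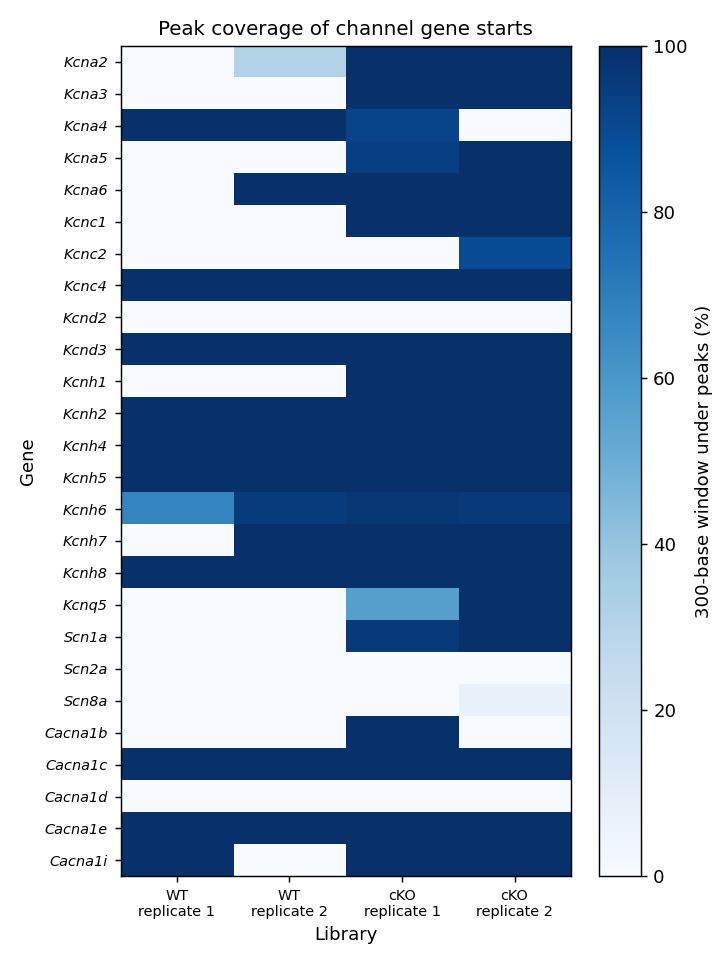
Share of the 300-base window around the gene start under H3K4me peaks (colour, percent) for the 26 channel genes in the RefSeq table, in rows by family, in each library (columns). Most windows are either fully covered or empty, and 6 rows are coloured in both cKO columns and empty in both WT columns.

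In 6 of the 26 genes (23.1%) the window was under peaks in both cKO libraries and in neither WT library; the background is 5.72% of 11855 tested starts. No channel gene had the reverse pattern, which 0.304% of tested starts had. The 6 genes were Kcna3 (a Kv1 channel also known from lymphocytes), Kcna5 (a Kv1 channel of heart and vessels), Kcnc1, Kcnh1 (an EAG channel), Kcnq5 (a Kv7 channel of the M current) and Scn1a. All but Scn1a encode potassium channels, as do 18 of the 26 genes. Their 300-base windows held 41 (Kcnc1), 37 (Kcna3), 27 (Kcnh1), 5 (Scn1a), 4 (Kcna5) and 3 (Kcnq5) CG dinucleotides, against a median of 20.5 over the 26. Kcna5 was below the level needed for the genotype test of its whole locus, so 5 of the 25 tested channel starts had the pattern. Among the 21 genes whose start lies within 1 kb of the end of the gene span, 5 had it (23.8%), beside 5.80% of 10444 tested starts of that kind. Leaving out 1 library asks for fewer libraries to agree, so the count could not fall. It was then 7 to 9 genes, and 8.46% to 13.7% of tested starts. With stricter peaks it was 7 genes (7.62% of tested starts) and with lists of equal number 5 (5.13%). With lists of equal covered length it was 0 genes (3.11% of tested starts), and 2 genes, Kcna4 and Kcnh6, had the reverse pattern (3.68%).

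A wider window showed how near the missing peaks were. Within 1 kb on either side of the start, 18 of the 26 genes had a peak base in all 4 libraries, and only Kcnc1 and Scn2a had one in both cKO libraries and neither WT library (background 2.72% of tested starts). For Kcnc1, 73.6% and 71.3% of these 2 kb lay under peaks in the cKO libraries and 0% in each WT library. For Kcna3, 1.80% and 32.4% were covered in the WT libraries and 100% in each cKO library. For Kcna2, a Kv1 channel of axons, the values were 31.2% and 32.9% in WT and 95.9% and 94.0% in cKO. The groups did not overlap for any of these. Around the Scn1a start one WT library had 0% and the other 41.2%, against 62.0% and 64.3% in the cKO libraries. Scn2a, the main sodium channel of developing excitatory neurons, had 0% in both WT libraries and 24.4% and 23.3% in cKO. By contrast Kcnd3, Kcnh5 and the inner start of Cacna1e were covered over 100% of the 2 kb in each of the 4 libraries, and the inner start of Kcnh2, the ERG channel of cardiac repolarisation, had 72.4% and 76.1% in WT and 75.4% and 69.0% in cKO. Kcnd2 had 22.1% in WT replicate 1 and 0% in WT replicate 2 and both cKO libraries. Cacna1d alone had 0% in all 4 libraries.

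Averaged over the 26 genes, 42.1% and 41.3% of the 2 kb lay under peaks in the WT libraries and 64.0% and 63.1% in the cKO libraries, a difference of 21.8 percentage points. With the lists as deposited, the replicates of each genotype differed by less than 1 point. With stricter peaks the WT libraries were at 30.1% and 19.7%, and with lists of equal number the cKO libraries were at 50.2% and 61.8%. Over the tested starts the same means were 41.8% and 35.5% in WT and 49.0% and 54.0% in cKO, a difference of 12.8 points. In 16 of the 26 genes the share was larger in both cKO than in both WT libraries, beside 29.5% of tested starts, and in 0 it was smaller, beside 2.57% of tested starts. No test was made of the channel genes against the others, since they were chosen with results of these data known. With lists of equal covered length the difference was 2.59 points for the channel genes and 0.702 for the tested starts, with 3 channel genes larger and 3 smaller in both cKO libraries, beside 16.0% and 9.16% of tested starts. The libraries then overlapped, at 34.2% and 41.3% in WT and 44.4% and 36.2% in cKO. For the channel genes the difference was 25.4 points with stricter peaks and 16.95 with lists of equal number. Over the tested starts it was 17.9 and 10.9 points in these settings. The part of list length in the difference was not tested.

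**Figure D2:**
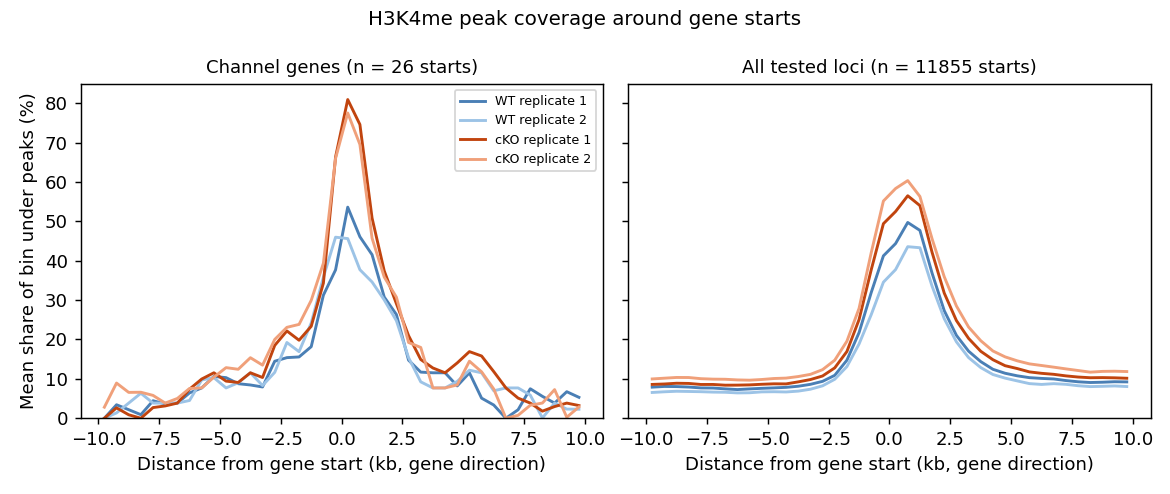
Mean share of each 500-base bin under H3K4me peaks (percent) by distance from the gene start (kb, in the gene's direction), 1 line per library, for the 26 channel starts (left) and the 11855 tested starts (right). In the bin just after the start the channel genes had 53.6% and 45.6% in WT and 80.9% and 77.5% in cKO, and the tested starts 44.3% and 37.7% in WT and 52.5% and 58.3% in cKO.

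Across whole loci, peaks covered a median of 7.35% and 6.07% of a channel locus in the WT libraries and 8.82% and 9.44% in the cKO libraries, and of a tested locus 9.01%, 7.52%, 10.5% and 12.02%. The channel genes are long, with a median span of 153 kb against 23.9 kb for tested loci. Longer loci had a smaller share under peaks in both sets (Spearman's rho −0.49 over 35 channel loci and −0.39 over 14941 tested loci, across genes that share the same libraries). The most covered loci were the T-type calcium channel Cacna1g with 43.4 ± 5.05% (SD over the 4 libraries), Kcna3 with 33.4% and Cacna1h with 27.7%. The least covered were Kcnh8 with 0.392%, Kcnd2 with 0.718% and Scn1a with 1.45%. Kcna3 spans only 1.97 kb, and 12.3% to 29.2% of its covered bases lay inside the gene, so its share is mostly that of the flanks. All 36 loci held bases that were under peaks in all 4 libraries.

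**Figure D3:**
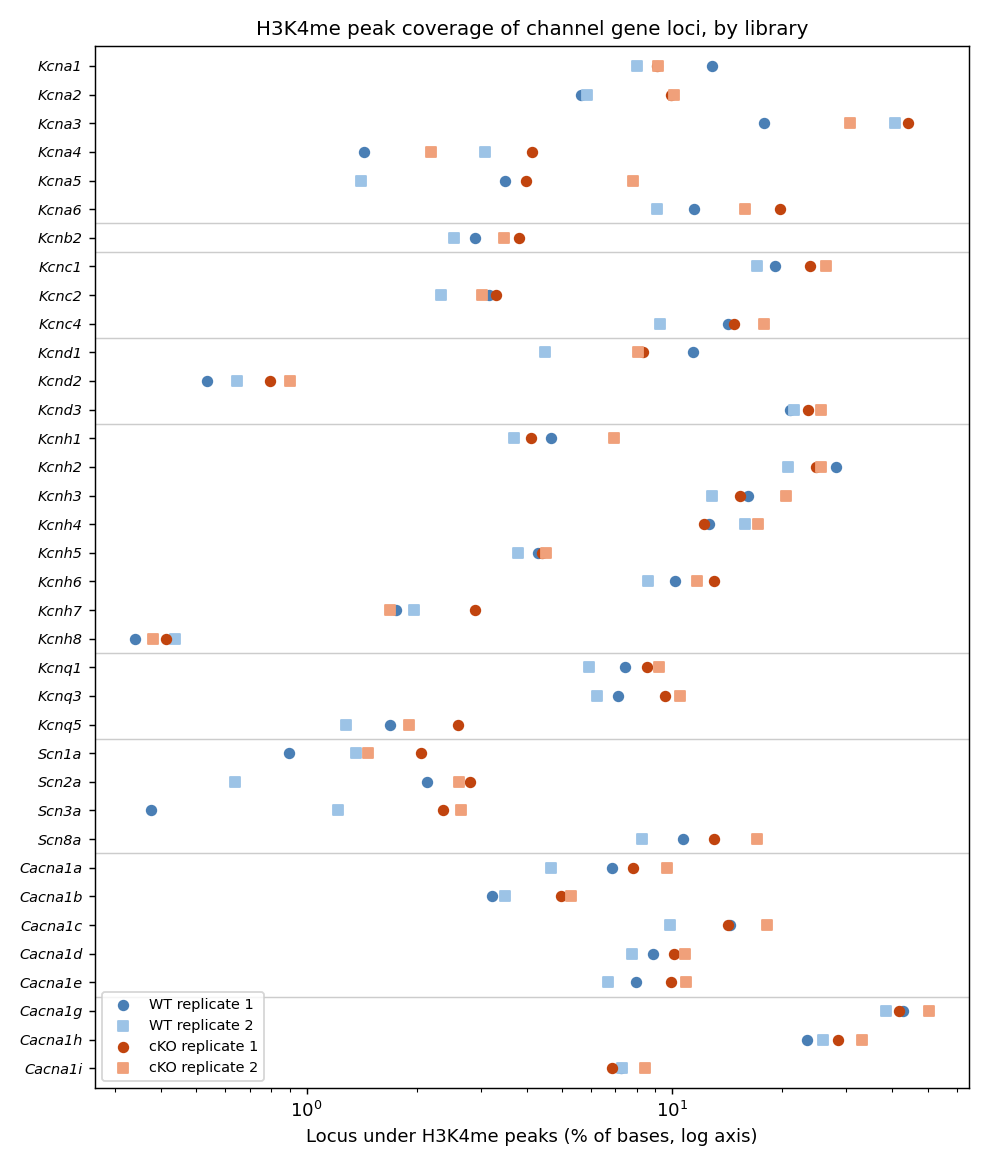
Share of each channel locus (gene span plus 10 kb on either side) under H3K4me peaks, in percent on a log axis, for the 36 genes in rows by family, 1 marker per library. Cacna1g lies highest and Kcnh8 lowest, and the sodium channels other than Scn8a lie at the low end.

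Among the Kv1 channels, which set firing threshold and axonal excitability, the loci are short and the median share was 8.66%. Kcna1 had 3.78 and 2.35 kb under peaks in WT against 2.67 and 2.68 kb in cKO, with overlapping groups. Kcna2 had 2.48 and 2.59 kb in WT against 4.37 and 4.46 kb in cKO, and Kcna6 had 6.04 and 4.76 kb in WT against 10.4 and 8.31 kb in cKO. Both genes were above in each cKO library. Kcna3 had 3.92 and 8.95 kb in WT against 9.71 and 6.74 kb in cKO, so the WT libraries differed from each other more than the genotypes did. Kcna4, which makes a rapidly inactivating current, had 0.810 to 2.32 kb over the libraries, and Kcna5 had 0.325 to 1.80 kb.

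Kcnb2, a Kv2 delayed rectifier, had 13.2 and 11.6 kb in WT against 17.4 and 15.8 kb in cKO, all of the shared bases inside the gene. The Kv3 channels let neurons fire at high rates. Kcnc1 was the most covered of them (21.6%), with 11.9 and 10.7 kb in WT against 14.9 and 16.5 kb in cKO. Kcnc2 had 5.06 to 7.16 kb and Kcnc4 had 3.89 to 7.48 kb over the libraries, with more bases in both cKO libraries for Kcnc4 alone of the pair.

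The Kv4 channels carry the A-type current of dendrites, and their members differed widely in coverage. Kcnd3 was covered over 22.9% of its locus, with 50.8 and 52.1 kb in WT against 56.8 and 61.9 kb in cKO. The 41.9 kb shared by all 4 libraries lay in 20 intervals, and 97.1% of it was inside the gene. Its paralog Kcnd2 spans 514 kb and had only 2.86 and 3.44 kb in WT against 4.24 and 4.81 kb in cKO. For Kcnd1 (1.55 to 3.94 kb) none of the shared bases were inside the gene, and 69.7% of all its peak bases fell in the neighbours Gripap1 and Otud5, so its values describe those genes more than the channel.

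The EAG, ERG and ELK channels (Kcnh genes) shape resting potential and repolarisation. Kcnh2 was the most covered (24.8%), with 14.6 and 10.8 kb in WT against 12.9 and 13.3 kb in cKO. Kcnh1 had 15.9 and 12.6 kb in WT against 14.0 and 23.7 kb in cKO, and Kcnh5 had 12.9 and 11.3 kb in WT against 13.2 and 13.6 kb in cKO. The genotypes overlapped for Kcnh1 and Kcnh2 and did not for Kcnh5. Kcnh7, an ERG channel of neurons, had 8.96 and 10.1 kb in WT against 14.7 and 8.66 kb in cKO. Kcnh3 had 4.92 to 7.87 kb and Kcnh8 had 1.345 to 1.73 kb. Kcnh4 (4.86 to 6.81 kb) and Kcnh6 (4.098 to 6.21 kb) share their loci with other genes, which held 44.9% and 42.1% of the peak bases: Rab5c, Hcrt and Ghdc beside Kcnh4, and Ace3 and Dcaf7 beside Kcnh6.

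The Kv7 channels carry the M current, which muscarinic receptors close. Kcnq3 had 22.7 and 19.9 kb in WT against 30.7 and 33.7 kb in cKO, Kcnq1, best known from heart and inner ear, 25.3 and 20.1 kb against 29.0 and 31.3 kb, and Kcnq5 9.89 and 7.50 kb against 15.2 and 11.2 kb. All 3 had more bases in each cKO library, as did 59.8% of tested loci. Inside Kcnq3 a single stretch of 7761 bases, chr15:66234934-66242694, was under peaks in all 4 libraries.

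The sodium channel loci were thinly marked apart from Scn8a. Their median share was 2.00 ± 0.698% (SD over the 4 libraries). Scn8a, whose product dominates at the axon initial segment, had 20.9 and 16.2 kb in WT against 25.6 and 33.5 kb in cKO, 12.3% of its locus. Scn3a, the sodium channel that prevails before birth, had 0.489 and 1.59 kb in WT against 3.08 and 3.45 kb in cKO. Scn2a had 3.57 and 1.06 kb in WT against 4.66 and 4.35 kb in cKO, and Scn1a had 1.71 and 2.60 kb in WT against 3.92 and 2.81 kb in cKO. All 4 had more bases in each cKO library, as did 59.8% of tested loci. For the neighbouring Scn1a, Scn2a and Scn3a at most 1.01 kb was shared by all 4 libraries. The summed covered length of the family was 1.69 times as large in cKO as in WT, beside 1.31 for all channel loci. With lists of equal covered length the family's median log2 difference, described below, was −0.79, with Scn3a not tested.

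The high-voltage calcium channels of transmitter release (Cacna1a, Cacna1b, Cacna1e) and of L-type current (Cacna1c, Cacna1d) are long genes with many separate peaks. Cacna1c, which couples activity to transcription, had 90.5 and 62.3 kb in WT against 89.9 and 115 kb in cKO, in 42 to 55 peaks per library. Cacna1d had 41.7 and 36.6 kb in WT against 47.5 and 51.0 kb in cKO, with 20.7% of its peak bases in Chdh and Dcp1a. Cacna1e had 40.9 and 34.3 kb in WT against 51.0 and 56.0 kb in cKO. Cacna1a had 22.0 and 15.0 kb in WT against 25.2 and 31.1 kb in cKO, and Cacna1b had 5.78 and 6.27 kb in WT against 8.93 and 9.49 kb in cKO. Of the 5, Cacna1c alone had overlapping genotypes.

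The T-type calcium channels, which open near rest and drive burst firing, were the most covered family, at a median share of 27.7 ± 4.14% (SD over the 4 libraries). Cacna1g had 36.9 and 33.0 kb in WT against 36.001 and 43.3 kb in cKO, and the groups overlapped. It held the widest stretch of any channel locus under peaks in all 4 libraries, 11298 bases at chr11:94464557-94475854, which crosses an end of the gene. Cacna1h had 19.2 and 21.3 kb in WT against 23.4 and 27.2 kb in cKO, with a shared stretch of 6767 bases at chr17:25404926-25411692 inside the gene. Cacna1i had 9.51 and 9.55 kb in WT against 8.96 and 11.0 kb in cKO, only 7.45% of its locus. The high share of the family was thus that of Cacna1g and Cacna1h.

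**Figure D4:**
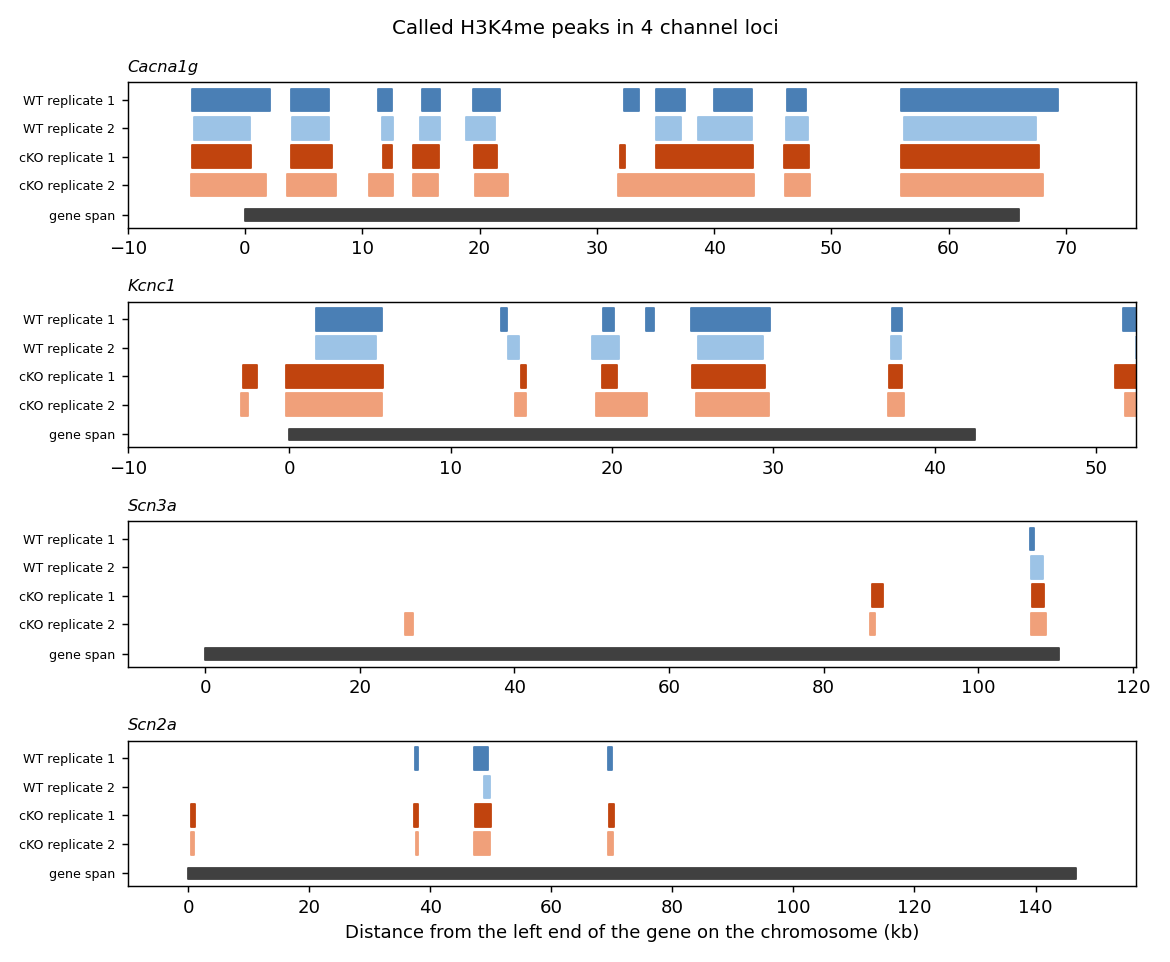
Called H3K4me peaks (bars) in the 4 libraries over the loci of Cacna1g, Kcnc1, Scn3a and Scn2a, by distance in kb from the gene's left end on the chromosome, with the gene span in dark grey below. Cacna1g is broadly covered in each library, while Scn3a and Scn2a hold few, short peaks.

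In bases, 22 of the 36 loci had more under peaks in both cKO than in both WT libraries (21 of the 35 that entered the genotype test) and 0 had fewer; the background is 59.8% and 1.22% of tested loci. The share of channel loci with more bases was thus close to that of loci in general. With lists of equal covered length 5 had more and 10 had fewer. The shares of tested loci were not counted in that setting, so whether the channel loci stand out there is unknown.

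The genotype test took out the shift shared by all loci of a library, not effects of list length that differ between loci. It used log2(covered bases + 500) with each library centred on its median over the 14941 loci with a mean of at least 1000 covered bases, so a difference is relative to the median locus and the added 500 makes it smaller than the true change where few bases are covered. Of 35 channel loci tested, 0 were called at an adjusted p under 0.05 (limma, Benjamini-Hochberg over all tested loci, of which 0% were called), with adjusted p between 0.4995 and 0.993. None passed an unadjusted p of 0.05 in either direction in this fit, beside 5.56% of tested loci higher and 4.44% lower in cKO. The median log2 difference, cKO minus WT, was 0.024 for the channel loci and −0.038 for all tested loci, and 18 of the 35 (51.4%) were positive, beside 45.0% of tested loci. The centred values of both cKO libraries lay above both WT values in 7 channel loci, beside 17.3% of tested loci, and below in 7, beside 27.2%. Without centring the median of all tested loci was 0.35, that of the channel loci 0.41, and 34 of the 35 were positive. At an unadjusted limma p under 0.05, 13 channel loci were then higher and 0 lower, beside 3196 and 10 of 14941 tested loci. Lists of equal covered length gave 2 channel loci higher and 3 lower at that level, beside 530 and 653 of 13348 tested loci. The channel median was −0.016 without WT replicate 1 and −0.092 without cKO replicate 1, and also negative with all 4 libraries at lists of equal number (−0.031), equal covered length (−0.18) and flanks of 25 kb (−0.0099), so its sign is not settled. Without WT replicate 1 limma called 119 loci higher and 5 lower, 0 of them channel loci.

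By family the differences ran in opposite directions, though no member passed the test. The sodium channels were positive in 4 of 4 (median log2 difference 0.44, but −0.79 with lists of equal covered length). Scn3a was not tested in the latter setting. The Kv7 channels were positive in 3 of 3 (0.18, but −0.0076 without cKO replicate 1) and the high-voltage calcium channels in 4 of 5 (0.12). The EAG, ERG and ELK channels were negative in 8 of 8 (−0.19), but without centring all 8 were positive (0.19). With centring, 3 were positive in the gene span alone, 2 with stricter peaks and 2 with lists of equal number. Leaving out 1 library made 1 or 2 positive. The median of the family stayed negative in these centred settings. The T-type channels were negative in 3 of 3 (−0.21), but without centring all 3 were positive (0.17), and with lists of equal covered length 2 were. The Kv4 channels were negative in 2 of 3 (−0.18, but 0.20 without centring). The Kv1 channels were positive in 3 of 5 (0.029) and the Kv3 channels in 2 of 3 (0.069), and these medians turned negative under 3 and 5 of 13 alternatives. Of the families of 2 or more loci, only the high-voltage calcium channels kept their sign under all 13 alternatives (0.015 to 0.51). Over tested loci the difference was lower at a larger share under peaks: the median was 0.082 under 5% covered (3324 loci), −0.020 from 5% to 20% (8627 loci) and −0.14 over 20% (2990 loci). In the channel loci the same medians were 0.024 (13 loci), 0.038 (16 loci) and −0.13 (6 loci), with no such order between the first pair.

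The loci with the smallest p on the higher side were Scn3a, Scn8a, Kcnq3, Kcna6 and Cacna1a. Scn3a had a log2 difference of 1.00 ± 0.438 (SE; limma adjusted p = 0.4995), and it was −0.55 with lists of equal number. Leaving out WT replicate 1 gave 0.36 and leaving out WT replicate 2 gave 1.65, so its size turned on which WT library was kept. Scn3a was not tested with stricter peaks or lists of equal covered length, where it was below the level of coverage needed. Scn8a had 0.27 ± 0.122 (SE; limma adjusted p = 0.504) and Cacna1a 0.22 ± 0.137 (SE; limma adjusted p = 0.584), and both stayed positive under the 13 alternatives. Their sizes did not hold: Scn8a was 0.097 with stricter peaks and 0.16 without cKO replicate 2, and Cacna1a ranged from 0.058, when WT replicate 2 was left out, to 0.39, when WT replicate 1 was. Kcnq3 had 0.20 ± 0.0999 (SE; limma adjusted p = 0.526) and Kcna6 0.36 ± 0.202 (SE; limma adjusted p = 0.564), and with lists of equal covered length they were −0.42 and −0.11. Kcna6 was 0.12 without cKO replicate 1 and 0.60 without cKO replicate 2. On the lower side stood Kcnh2, Cacna1g, Cacna1i, Kcna1 and Kcnh5. Kcnh2 had −0.33 ± 0.143 (SE; limma adjusted p = 0.4995), Cacna1g −0.21 ± 0.0918 (SE; limma adjusted p = 0.502) and Cacna1i −0.33 ± 0.154 (SE; limma adjusted p = 0.517). Kcnh5 had −0.25 ± 0.133 (SE; limma adjusted p = 0.552), and without centring these 4 were 0.058, 0.17, 0.058 and 0.14. Kcna1 had −0.52 ± 0.259 (SE; limma adjusted p = 0.526) and was 0.17 with stricter peaks and −0.33 without WT replicate 1.

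**Figure D5:**
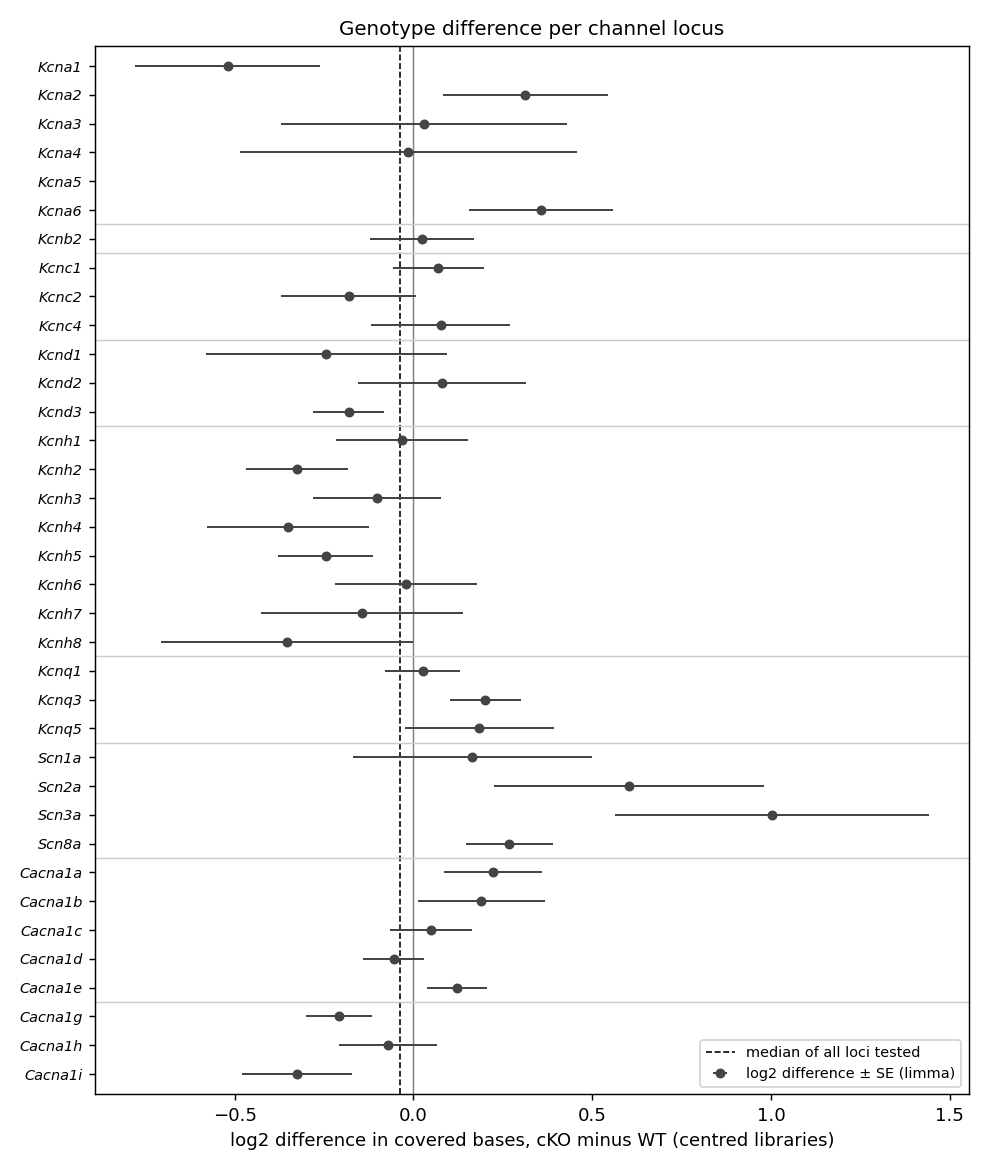
log2 difference in covered bases (cKO minus WT, centred libraries) of each of the 35 tested channel loci in rows by family; points are limma estimates, bars are ± 1 SE, and the dashed line is the median of all tested loci, −0.038. The sodium loci lie to the right of 0 and the Kcnh and T-type loci to the left, though without centring the latter lie to the right as well.

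Stretches of at least 200 bp that peaks covered in the 2 libraries of a genotype, while the other genotype had no peak base there, were counted next. The channel loci held 18 cKO-only regions, in 12 of 36 loci, and 1 WT-only region; 18.6% of tested loci had a cKO-only region and 2.18% a WT-only region. Per length the channel loci had fewer: 2.28 cKO-only regions per Mb of locus against 3.15 for tested loci, and a channel locus averaged 219 kb where a tested one averaged 81.9 kb. The longest lay inside Cacna1d (chr14:30359300-30360560, 1261 bp), the gene with the most, 4. The next were inside Kcnh7 (chr2:62842447-62843052, 606 bp) and Kcnd3 (chr3:105637235-105637736, 502 bp). Inside Scn2a a region of 401 bp (chr2:65621282-65621682) lay just downstream of the gene's start, and Scn3a held one of 332 bp (chr2:65543406-65543737). The regions had a median of 402.5 bp, and 16 of the 18 were inside the gene. The WT-only region was inside Kcnq3 (chr15:66199995-66201069, 1075 bp), a gene whose covered bases were otherwise more in cKO. With lists of equal number there were 9 cKO-only and 8 WT-only regions, and with lists of equal covered length 2 and 25. Regions over tested loci were not counted in these settings, so whether the channel loci stand out there is unknown. Leaving out 1 library, which asks for fewer libraries to agree, gave 29 to 57 cKO-only and 5 to 15 WT-only regions: the most of the former without WT replicate 1 and of the latter without WT replicate 2.

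Most of the bases that only the cKO libraries covered lay in stretches that overlapped a WT peak. In the channel loci 65.0 kb were covered in both cKO libraries and in no WT library, 12.4% of the bases common to the cKO libraries, beside 10.8% over tested loci. Of these, 56.3 kb belonged to cKO stretches that overlapped a WT peak and 8.76 kb (13.5%) stood apart, beside 19.4% standing apart over tested loci. Cacna1c with 7.95 kb and Cacna1e with 7.70 kb held the most, of which 7.57 and 7.35 kb were in stretches that overlapped a WT peak, while Cacna1d had 2.52 of 5.09 kb apart from any. Bases covered only in WT came to 5.44 kb, 1.42% of the bases common to the WT libraries and 1.35% over tested loci. The peaks in channel loci had a median width of 1083 and 1197 bp in the WT lists and 1173.5 and 1466 bp in the cKO lists.

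The partners of these channels were listed as 49 further genes: Kv modifier and beta subunits, Kv4 partners, KCNE, sodium channel and calcium channel auxiliary subunits, FGF partners of sodium channels, HCN channels and Nalcn. Of 48 tested, 0 were called by limma, 5 were at an unadjusted p under 0.05 on the higher side and 1 on the lower (5.56% and 4.44% of tested loci were), 20 were positive and 28 negative (45.0% of tested loci were positive), and the median log2 difference was −0.059. In bases, 28 of the 48 had more in both cKO libraries and 0 had fewer, beside the 59.8% and 1.22% of tested loci. Dpp6, which speeds Kv4 channels, had 11.8 and 6.63 kb in WT against 16.5 and 22.9 kb in cKO (0.71 ± 0.204, SE; limma adjusted p = 0.454). Leaving out WT replicate 1 gave Dpp6 1.00 with a limma adjusted p of 0.028, leaving out WT replicate 2 gave 0.42 with a limma adjusted p of 0.485, and lists of equal covered length gave −0.14. Kcns2, a silent subunit that modifies Kv2 channels, had 1.39 and 0.398 kb in WT against 2.82 and 3.93 kb in cKO (1.18 ± 0.379, SE; limma adjusted p = 0.474), 0.74 without WT replicate 2 and −0.26 with lists of equal number. On the lower side Kcng1, also a modifier of Kv2, had 15.6 and 15.9 kb in WT against 15.0 and 17.1 kb in cKO (−0.36 ± 0.132, SE; limma adjusted p = 0.474). Cacng8, a member of the calcium channel gamma family that also serves AMPA receptors, had 11.0 and 8.61 kb in WT against 8.85 and 11.3 kb in cKO (−0.35 ± 0.150, SE; limma adjusted p = 0.4995). In bases the genotypes overlapped for both.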

How the data were processed

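H3K4me was profiled by ChIP-seq in 4 libraries of mouse cortex of E15.5 embryos, and the 4 input samples were not analysed here. The submitters' processing notes name FastQC, cutadapt, Bowtie2 2.2.8, the peak caller MACS2 2.1.1 and the genome build mm10, with no options; how reads were filtered and whether inputs served as control is not given in the sources used here. The authors deposited 1 broad peak list per library, with a score, a fold enrichment (ratio) and −log10 p and q values for each peak. The deposited score is the −log10 q-value times 10 without its decimals, bar rare exceptions, and the smallest −log10 q in any list was 1.30. The q-value was used to filter and rank peaks within a list, and no result rests on the other columns. No file holds read counts, so depth is unknown and no value has a counting interval; deeper libraries give more and wider peaks.

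Overlapping peaks were merged per library and covered bases counted per locus in Python 3.11.15 (pandas 2.3.3, numpy 2.4.6). Gene spans were those of RefSeq for GRCm38.p6 (the assembly of mm10) and starts came from a RefSeq promoter table, whose strand was checked on 803 overlapping pairs of opposite strand (0 mismatches). Loci with a mean of at least 1000 covered bases were fitted with limma 3.58.1 (R 4.3.3; empirical Bayes with a trend) on log2(covered bases + 500), each library centred on its median, with Benjamini-Hochberg adjustment over 14941 loci. Alternatives were a pseudocount of 100, no filter, no centring, a −log10 q of at least 3 (stricter peaks), lists of equal number or equal covered length, other flanks (0 or 25 kb), a replicate block and leaving out each library. Those on the starts that leave out a library, keep only starts near the gene end or concern the 2 kb share, and the leave-one-out counts of regions, were chosen after seeing the data.

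The members and lists were chosen with earlier results of these data known. Full statistics are given for the 5 channel loci of smallest p in each direction and 2 partner genes in each direction; the most and least covered loci and the longest genotype-specific regions are named, and the remaining values cover every other member. Genes whose starts are shown as sequence, and the start-window genes, were named after their values were seen. In the fits that leave out a library, the lone library of a genotype is assumed to vary like the others.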

Additional observations from a re-analysis of the deposited data

How the results depend on the processing

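Peak lists carry no counts, so depth, and hence the smallest difference that could be seen, is unknown. Equal covered length removes any true difference in total length along with a technical one. No channel locus was called by limma in any of 13 alternatives. Fewer of them were tested in some: 32 with stricter peaks, 33 with equal number, 32 with equal covered length and 33 with the gene span alone. Over all loci the calls were 0, but without WT replicate 1 they were 119 higher and 5 lower (0 to 119 and 0 to 5 over the 4 left-out libraries). Replicate numbers mark no shared litter or day in the labels; deviations of same-numbered libraries correlated at −0.096 over 14941 loci, and a replicate block gave 0 calls and the same channel median, 0.024.

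The channel median log2 difference was −0.18 with equal covered length and 0.41 with no centring (−0.092 to 0.084 over left-out libraries). Channel loci with more bases in both cKO libraries numbered 5 with equal covered length. Those with fewer numbered 10 there, 3 with equal number and 1 in the gene span alone. The shares of tested loci were not counted in these settings. The median share of a locus was 5.35% with stricter peaks and 5.53% with equal covered length (7.41% to 8.54% over left-out libraries). The share of all peak bases in WT was 0.373% with stricter peaks, 0.354% in the gene span alone and 0.446% with 25 kb flanks; in cKO it was 0.401%, 0.366% and 0.458%, and 0.405% and 0.393% with equal number and equal covered length. cKO-only regions numbered 28 with stricter peaks, 9 with equal number, 2 with equal covered length and 4 at a minimum of 500 bp. WT-only regions numbered 2, 8 and 25 with the first 3 of these. Neither kind was counted over tested loci in these settings. With 1 library left out the region counts were 29 to 57 (cKO-only) and 5 to 15 (WT-only); fewer libraries need to agree there. Starts under peaks in cKO alone numbered 2 within 1 kb and 0 with equal covered length. Starts under peaks in WT alone numbered 1 with equal number and 2 with equal covered length. They numbered 0 to 1 over left-out libraries, where again fewer libraries need to agree. Starts covered in all 4 libraries numbered 18 within 1 kb. The 2 kb start difference was 25.4 points with stricter peaks, 16.9 with equal number and 2.59 with equal covered length.

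Signs turned for single loci as follows. No centring gave 0.058 for Kcnh2, 0.17 for Cacna1g, 0.058 for Cacna1i, 0.14 for Kcnh5, 0.021 for Kcng1 and 0.039 for Cacng8. Equal covered length gave −0.42 for Kcnq3, −0.11 for Kcna6, 0.13 for Cacna1g and −0.14 for Dpp6. Equal number gave −0.55 for Scn3a and −0.26 for Kcns2, which were not tested with stricter peaks or equal covered length. Stricter peaks gave 0.17 for Kcna1, 0.039 for Kcng1 and 0.22 for Cacng8. The cause of these changes was not tested.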
